A study of Rattus norvegicus with 16 samples.

Results

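Genes of the brain's small vessels were followed in rats that lack Pink1, the gene for a mitochondrial kinase, and in wild-type rats. The set asked for held 10 genes, taken by symbol from the deposited gene count tables of both sexes: Pdgfrb, Rgs5, Cspg5, Cldn5, Pecam1, Emcn, Flt1, Tek, Cdh5 and Slco1a4. Of these, 9 were matched among the 32754 identifiers of the tables, and Pecam1 was not analysed here. All 9 passed the filter on low counts in both sexes, with between 50 and 3024 counts in a library. The set was drawn up because Pdgfrb had been seen to be higher in Pink1-/- males, so the genes were chosen by male CPM values, and male values are given as a description. The female contrast was not used in that choice, so test results are given for females, although earlier results of these data, females included, were known when the set was drawn up.

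The 16 libraries came from 4 male Pink1-/- rats, 4 male wild-type (WT) rats, 4 female Pink1-/- rats and 4 female WT rats, all 8 months old. By the labels the tissue was brain, and the nucleus ambiguus, a motor nucleus of the medulla, is named in the series title. Libraries are called here by the number in their title, which is taken as an animal number. The labels do not state how the animals were bred, whether tissue was pooled, or that each library is a separate animal, so a p-value measures the spread between these libraries. Total counts were 10959412 to 13618637 in male Pink1-/- and 11912656 to 13691846 in male WT libraries. They were 13875621 to 22779651 in female Pink1-/- and 17978121 to 26570195 in female WT libraries. Loci annotated as mitochondrial clones took 36.54% to 43.95% of the counts in males and 1.77% to 11.87% in females, so levels are compared within a sex only. The 1.77% was that of Pink1-/- 548 alone, and the other female libraries were at 8.08% to 11.87%. Levels are given in CPM, counts relative to the library total, adjusted by the TMM factors (trimmed mean of M-values) of edgeR. Pink1 itself was at 2.32, 1.71, 1.99 and 1.51 CPM in the male Pink1-/- libraries 17, 18, 19 and 25, against 66.7, 68.6, 64.7 and 78.3 CPM in the male WT libraries 20, 22, 23 and 24. In females it was at 11.6, 4.68, 4.75 and 7.23 CPM in the Pink1-/- libraries 548, 602, 736 and 983, against 130, 115, 137 and 130 CPM in the WT libraries 64, 111, 504 and 980. The libraries matched their genotype labels. The same order of libraries holds wherever 4 values of a group are listed. Chat, the acetylcholine-synthesising enzyme of the motor neurons, was present in every library, but it spread from 13.0 to 57.4 CPM in female Pink1-/- and from 6.24 to 76.9 CPM in female WT libraries.

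Brain capillaries are tubes of endothelial cells joined by tight junctions, with pericytes wrapped round them inside a shared basement membrane. Endothelial cells secrete PDGF-BB, and pericytes answer through PDGFRB. Loss of that signal is known to leave brain vessels with few pericytes and a leaky blood-brain barrier. The genes here fall by role into pericyte genes (Pdgfrb, Rgs5), endothelial receptors (Flt1, Tek), a surface glycoprotein (Emcn), junction proteins (Cldn5, Cdh5) and a transporter (Slco1a4). Cspg5 encodes neuroglycan C, a proteoglycan of neurons and glia. It is not a pericyte marker (the pericyte proteoglycan NG2 is encoded by Cspg4), so it is described apart.

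Promoter sequence from RefSeq (build GRCr8) was available for 5 of the 9 genes. Shown are the 250 bases before the annotated start of Rgs5, the pericyte gene that varied most among female WT libraries, of Emcn, the endothelial gene whose genotypes stood apart in both sexes, and of Cldn5 as the contrast without a motif. The motif searched was the core bound by ETS factors, regulators of endothelial genes: GGAA, or TTCC where it lies on the other strand. The capitals mark each match, 5′ to 3′ on the strand of the gene, and the motif and its complement cannot overlap within a match.
Rgs5: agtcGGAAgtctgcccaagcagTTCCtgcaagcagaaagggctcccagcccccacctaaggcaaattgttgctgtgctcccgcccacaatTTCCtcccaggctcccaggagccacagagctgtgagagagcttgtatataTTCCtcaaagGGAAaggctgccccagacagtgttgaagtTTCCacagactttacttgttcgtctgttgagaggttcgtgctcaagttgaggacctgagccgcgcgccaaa
Emcn: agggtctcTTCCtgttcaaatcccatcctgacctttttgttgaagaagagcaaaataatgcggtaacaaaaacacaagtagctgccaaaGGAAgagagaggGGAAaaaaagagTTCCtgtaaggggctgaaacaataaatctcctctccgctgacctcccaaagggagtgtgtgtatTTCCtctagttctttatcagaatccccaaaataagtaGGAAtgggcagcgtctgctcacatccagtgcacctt
Cldn5: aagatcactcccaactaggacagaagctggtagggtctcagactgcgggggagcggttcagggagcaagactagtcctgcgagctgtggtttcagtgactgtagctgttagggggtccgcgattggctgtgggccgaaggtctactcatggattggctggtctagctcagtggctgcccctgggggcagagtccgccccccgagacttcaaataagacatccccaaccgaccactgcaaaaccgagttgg
The Rgs5 window lies at chr13:84380827-84381076 on the + strand, and the Emcn window at chr2:228564289-228564538 on the + strand. Each held 6 matches. Of 33469 promoter windows, also cut to the 250 bases before the start, 9.27% held at least as many, 93.2% held at least 1, and the median was 3. The Cldn5 window, at chr11:95718599-95718848 on the - strand, held 0. Flt1 had 3 matches and Slco1a4 had 5. A match is a run of letters and not a measured binding site.

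Pdgfrb, the pericyte receptor for PDGF-BB, was higher in Pink1-/- rats of both sexes. In males it was at 23.5, 20.7, 21.1 and 21.6 CPM in Pink1-/- libraries, against 16.4, 16.4, 11.4 and 13.8 CPM in WT libraries. The lowest Pink1-/- library lay above the highest WT library, and WT 23 was the lowest of all. The means were 21.7 ± 1.23 CPM in Pink1-/- and 14.5 ± 2.43 CPM in WT males (SD, n = 4 each), a 1.5-fold difference (log2 fold change 0.58 ± 0.12, SE). This is the contrast that chose the gene. Its adjusted p there was 0.0318 by edgeR's quasi-likelihood test, in a comparison that called 317 of 13770 genes (2.3%), and the authors' deposited table gives it a log2 fold change of 0.58 with a false discovery rate of 0.00203. The call is not firm: it was lost in 7 of the 8 fits that each left out a male library, and without both Pink1-/- 17 and WT 23, the ends of the first principal component, the log2 fold change was 0.45 (adjusted p = 0.0747).

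In females, whose values were not used in the choice, Pdgfrb was at 46.0, 41.4, 40.2 and 44.8 CPM in Pink1-/- libraries, against 38.5, 34.7, 28.9 and 33 CPM in WT libraries. The groups again did not overlap, and the nearest libraries, Pink1-/- 736 and WT 64, were 40.2 and 38.5 CPM. The means were 43.1 ± 2.73 CPM in Pink1-/- and 33.8 ± 3.98 CPM in WT females (SD, n = 4 each), a 1.28-fold difference (log2 fold change 0.35 ± 0.10, SE). Its unadjusted p was 0.00391, the rank 97 of 15265 genes, and its adjusted p over all of them was 0.609 by edgeR's quasi-likelihood test. It therefore did not pass the threshold in females. An exact 2-sided permutation test over the 8 libraries gave 0.0286, the smallest p that 4 against 4 allows. The log2 fold change stayed between 0.28 and 0.42 when each female library was left out in turn. It was 0.24 without both WT 504 and WT 980, an alternative added after the data were seen because these libraries were low in Rgs5. The male difference exceeded the female one by 0.23 ± 0.16 (log2, SE). In bulk tissue, more or fewer pericytes and more or less Pdgfrb RNA per pericyte cannot be told apart.

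**Figure D1:**
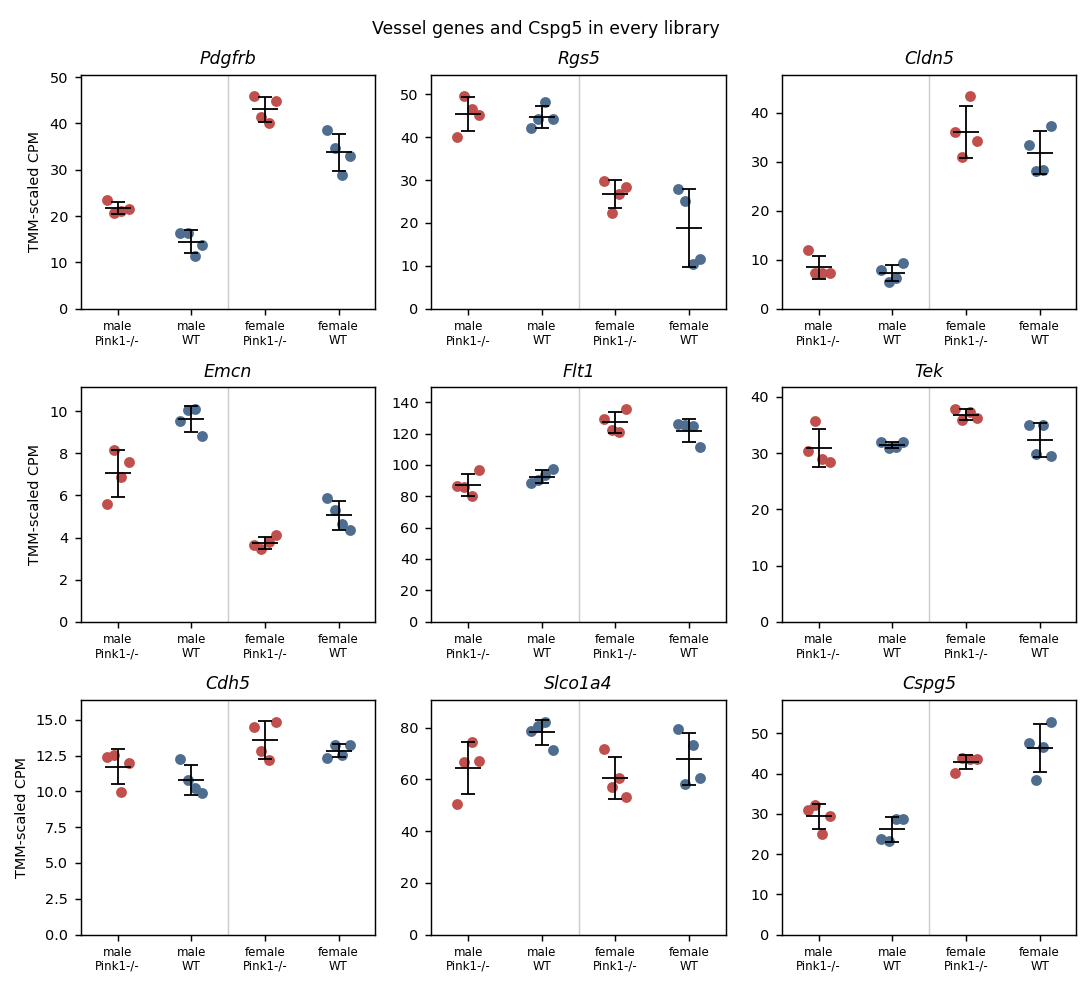
TMM-scaled CPM of the 9 matched genes in each library (points, y axis from 0), by sex and genotype on the x axis, with the mean and SD of 4 libraries (bars). Pdgfrb is higher and Emcn is lower in Pink1-/- libraries with no overlap in either sex, and Rgs5 splits the female WT libraries into a pair at 28.0 and 25.1 CPM and a pair at 10.4 and 11.6 CPM.

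Rgs5, a regulator of G-protein signalling that marks pericytes, did not follow Pdgfrb in males. It was at 40.0, 49.6, 46.6 and 45.1 CPM in male Pink1-/- libraries, against 42.1, 44.1, 48.2 and 44.3 CPM in male WT libraries. The groups overlapped fully, and the log2 fold change was 0.02 ± 0.08 (SE). In females Rgs5 was at 29.7, 22.4, 26.7 and 28.3 CPM in Pink1-/- libraries, against 28.0, 25.1, 10.4 and 11.6 CPM in WT libraries. WT 64 and WT 111 lay within the Pink1-/- range, while WT 504 and WT 980 lay far below every other female library. The female log2 fold change of 0.52 ± 0.28 (SE) had an adjusted p of 0.993 by edgeR's quasi-likelihood test and an exact 2-sided permutation p of 0.2 over 8 libraries. Without WT 504 and WT 980 it was 0.02 ± 0.13 (SE).

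The low pair of female WT libraries was also low in some other pericyte genes and not in others; those shown were picked after their values were seen. Abcc9, a subunit of the potassium channel of pericytes, was at 36.4, 36.8, 29.1 and 36.2 CPM in female Pink1-/- libraries, against 33.9, 31.9, 15.3 and 16.2 CPM in female WT libraries. Atp13a5, a P-type ATPase gene enriched in brain pericytes of mice, was at 30.1, 30.5, 26.7 and 23.6 CPM in Pink1-/- and 23.0, 25.2, 11.3 and 12.1 CPM in WT females. In both genes the low values were those of WT 504 and WT 980. Notch3, by contrast, was at 37.1, 28.2, 39.9 and 31.2 CPM in Pink1-/- and 38.8, 28.3, 36.7 and 42.2 CPM in WT females, and Cspg4 was at 61.7, 52.9, 54.5 and 51.8 CPM in Pink1-/- and 49.6, 39.4, 47.0 and 47.9 CPM in WT females, with WT 111 the lowest WT library in each. The 18 matched pericyte genes summed to 277, 257, 260 and 244 CPM in female Pink1-/- libraries, against 274, 218, 232 and 215 CPM in female WT libraries, with WT 64 apart from the other WT libraries. The summed level of 12 vascular smooth muscle genes was 147, 221, 168 and 194 CPM in female Pink1-/- libraries, against 184, 179, 95.6 and 137 CPM in female WT libraries, lowest in the same pair. Their part in the pericyte differences was not tested. Of the endothelial genes, Emcn was also lowest in WT 504 and WT 980, at 4.63 and 4.38 CPM, against 5.87 and 5.32 CPM in WT 64 and WT 111. Flt1 was low in WT 980 alone, and Tek, Cdh5, Cldn5 and Slco1a4 were not lowest in both. Pdgfrb was lowest in WT 504 (28.9 CPM) and WT 980 (33 CPM), but WT 111 (34.7 CPM) was close to them, and WT 64 and WT 111 were also below every Pink1-/- female.

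Among the endothelial genes Emcn had the clearest difference. Emcn encodes endomucin, a sialomucin of capillary and venous endothelium. In males it was at 5.58, 8.18, 6.90 and 7.57 CPM in Pink1-/- libraries, against 9.56, 10.1, 10.1 and 8.82 CPM in WT libraries. Every Pink1-/- male lay below every WT male, with a log2 fold change of -0.45 ± 0.13 (SE). In females it was at 3.64, 3.44, 3.81 and 4.13 CPM in Pink1-/- libraries, against 5.87, 5.32, 4.63 and 4.38 CPM in WT libraries. Every Pink1-/- female also lay below every WT female, though Pink1-/- 983 and WT 980 were close. The female log2 fold change was -0.42 ± 0.16 (SE), with an unadjusted p of 0.0206 and an adjusted p of 0.985 by edgeR's quasi-likelihood test, and it did not pass the threshold. The exact 2-sided permutation p over 8 libraries was 0.0286, the smallest possible. The log2 fold changes of the sexes differed by -0.04 ± 0.19 (male minus female, SE).

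Flt1 and Tek encode receptor tyrosine kinases of endothelium, for VEGF and for the angiopoietins. Flt1 was at 86.4, 86.0, 80.3 and 96.8 CPM in male Pink1-/- libraries, against 88.3, 90.6, 93.6 and 97.5 CPM in male WT libraries. Female libraries had 129, 123, 121 and 136 CPM in Pink1-/- and 126, 126, 125 and 111 CPM in WT libraries. Both sexes overlapped, with log2 fold changes of -0.08 ± 0.07 in males and 0.06 ± 0.07 in females (SE). Tek was at 30.4, 35.7, 28.9 and 28.3 CPM in male Pink1-/- libraries, against 31.9, 30.8, 31.1 and 31.9 CPM in male WT libraries, which overlapped. In females Tek was at 37.9, 35.9, 37.3 and 36.3 CPM in Pink1-/- and 35.0, 29.8, 35.0 and 29.6 CPM in WT libraries. The female groups did not overlap, by less than 1 CPM between the nearest libraries. The female log2 fold change of Tek was 0.19 ± 0.08 (SE), with an unadjusted p of 0.0452, an adjusted p of 0.993 by edgeR's quasi-likelihood test and an exact 2-sided permutation p of 0.0286.

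Cldn5 and Cdh5 encode claudin-5, the main tight junction claudin of the blood-brain barrier, and VE-cadherin of the adherens junction. Cldn5 was at 12, 7.24, 7.28 and 7.21 CPM in male Pink1-/- libraries, against 7.95, 5.55, 6.31 and 9.27 CPM in male WT libraries. Pink1-/- 17 stood apart from the other Pink1-/- males, which lay within the WT range. The male log2 fold change was 0.22 ± 0.21 (SE), and it was -0.01 without that library. In females Cldn5 was at 36.1, 30.9, 43.5 and 34.2 CPM in Pink1-/- and 33.3, 28.2, 28.4 and 37.3 CPM in WT libraries, with overlap and a log2 fold change of 0.19 ± 0.12 (SE). Cdh5 was at 12.4, 12.5, 9.93 and 12 CPM in male Pink1-/- libraries, against 12.3, 10.8, 10.2 and 9.88 CPM in male WT libraries. The female values were 14.5, 12.8, 12.2 and 14.9 CPM in Pink1-/- and 12.3, 13.2, 12.5 and 13.2 CPM in WT libraries. Both sexes overlapped, and the log2 fold changes of Cdh5 were 0.12 ± 0.12 in males and 0.08 ± 0.10 in females (SE).

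Slco1a4 encodes an organic anion transporter of the barrier endothelium. Whether reads were split between it and related genes was not examined, so its level is uncertain. It was at 50.5, 66.6, 74.3 and 66.9 CPM in male Pink1-/- libraries, against 78.5, 80.8, 82.3 and 71.4 CPM in male WT libraries. In females it was at 71.8, 56.9, 60.6 and 53.1 CPM in Pink1-/- and 79.4, 58.2, 73.3 and 60.5 CPM in WT libraries. Both sexes overlapped, with log2 fold changes of -0.28 ± 0.11 in males and -0.16 ± 0.12 in females (SE). Cspg5, the neural proteoglycan, was at 30.9, 32.1, 25.1 and 29.4 CPM in male Pink1-/- libraries, against 23.8, 23.2, 28.8 and 28.8 CPM in male WT libraries. The female values of Cspg5 were 40.1, 43.9, 43.7 and 43.7 CPM in Pink1-/- and 47.7, 38.3, 46.5 and 52.9 CPM in WT libraries. It overlapped in both sexes, with log2 fold changes of 0.17 ± 0.11 in males and -0.11 ± 0.10 in females (SE). In females the adjusted p of Flt1, Cldn5, Cdh5, Slco1a4 and Cspg5 was 0.993 each by edgeR's quasi-likelihood test, and their exact 2-sided permutation p-values over 8 libraries were 0.4, 0.257, 0.343, 0.257 and 0.314 in that order.

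**Figure D2:**
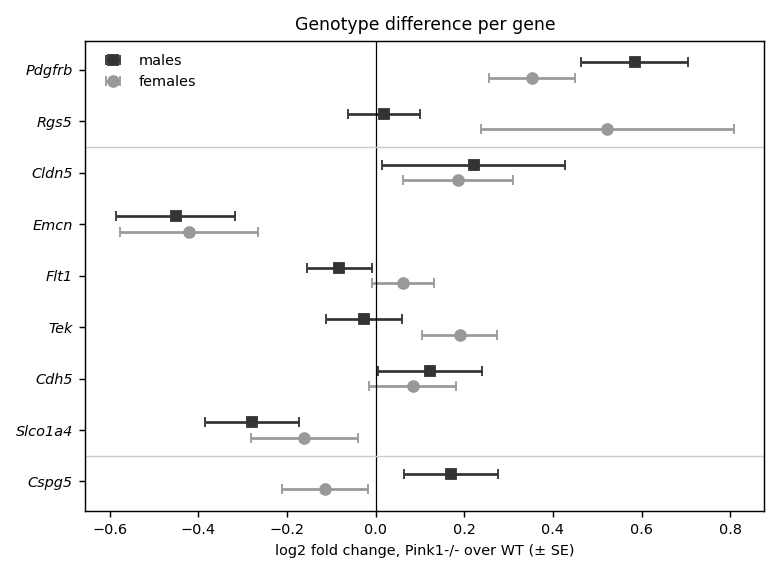
Log2 fold change of Pink1-/- over WT (x axis) for each gene (rows), with SE bars, in males (squares) and females (circles). Pdgfrb lies above 0 at 0.58 in males and 0.35 in females, Emcn lies below 0 at -0.45 and -0.42, and the remaining endothelial genes lie between -0.28 and 0.22.

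Counted over the set, 0 of 9 genes passed the threshold in females, where edgeR called 9 of 15265 genes (0.059%), and 3 of 9 had an unadjusted p under 0.05, against 4.64% of all genes. DESeq2 also called 0 of the 9 in females. The female groups did not overlap for Pdgfrb and Tek, 2 of 9 genes that were higher, against 1.62% of all genes, and for Emcn, 1 of 9 that was lower, against 1.76%. Earlier results of these data, females included, were known when the genes were chosen, so these female shares give no independent support. In males 1 of 9 was called, 1 of 9 was higher without overlap (7.15% of all genes) and 1 of 9 was lower without overlap (8.04%), and nothing is read from these male counts, since that contrast chose the set. Pdgfrb was higher without overlap in both sexes, as were 0.243% of the 13585 genes tested in both. Emcn was lower without overlap in both, as were 0.221%. Nothing is read from these joint shares either, since their male side comes from the contrast that chose the set. The authors' deposited table gives the female Pdgfrb a p-value of 0.00543 with a false discovery rate of 0.492, and the female Emcn a p-value of 0.0618.

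Set against the endothelium, Pdgfrb stood higher in every Pink1-/- library of both sexes. Per 100 counts of the 6 endothelial genes together, male Pink1-/- libraries held 11.9, 9.58, 10.2 and 9.89 Pdgfrb counts, and male WT libraries held 7.19, 7.19, 4.87 and 6.01. Female Pink1-/- libraries held 15.7, 15.8, 14.5 and 16.1, and female WT libraries 13.2, 13.3, 10.4 and 12.9. Neither sex overlapped. The means were 10.4 ± 1.04 in Pink1-/- and 6.31 ± 1.11 in WT males, and 15.5 ± 0.713 in Pink1-/- and 12.4 ± 1.39 in WT females (SD, n = 4 each). Most of the endothelial counts were those of Flt1 and Slco1a4. This ratio does not depend on library scaling, since both sides come from the same library. In males both sides of it moved. The summed level of the 6 endothelial genes was 197 to 219 CPM in Pink1-/- and 228 to 234 CPM in WT males. With Pdgfrb higher and this sum lower, each without overlap, the separation of the male ratio was fixed in advance. Not all of them fell: 4 of the 6 log2 fold changes were below 0 and 2 were above. Slco1a4, whose level is uncertain, averaged 64.6 CPM in Pink1-/- and 78.3 CPM in WT males. The 26 other matched endothelial genes overlapped in sum, at 354 to 386 CPM in Pink1-/- and 372 to 390 CPM in WT males. In females the summed level of the 6 genes overlapped, at 263 to 293 CPM in Pink1-/- and 256 to 292 CPM in WT libraries.

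Rgs5 against the same endothelial counts gave no such separation. It was at 20.3, 22.9, 22.4 and 20.6 counts per 100 endothelial counts in male Pink1-/- libraries, against 18.4, 19.3, 20.6 and 19.4 in male WT libraries. Female Pink1-/- libraries held 10.1, 8.52, 9.59 and 10.2, and female WT libraries 9.60, 9.62, 3.73 and 4.54. Both sexes overlapped, and only WT 504 and WT 980 lay below the female Pink1-/- range. The mean log2 CPM of Pdgfrb and Rgs5 minus that of the 6 endothelial genes was 0.50 ± 0.05 in Pink1-/- and 0.10 ± 0.10 in WT males, and 0.25 ± 0.07 in Pink1-/- and -0.25 ± 0.41 in WT females (SD, n = 4 each). The difference of 0.40 in males became 0.68 with Pdgfrb alone on the pericyte side, and 0.26 with medians. The female difference of 0.51 became 0.16 without WT 504 and WT 980. The score was given no test, because its genes were chosen with results known.

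Pdgfrb was also set against Emcn, a pair picked after the values were seen because their groups stood apart in both sexes. Male Pink1-/- libraries held 4.21, 2.53, 3.05 and 2.86 Pdgfrb counts per Emcn count, and male WT libraries held 1.72, 1.63, 1.12 and 1.56. Female Pink1-/- libraries held 12.6, 12, 10.6 and 10.8, and female WT libraries 6.56, 6.52, 6.25 and 7.54. The groups did not overlap in either sex. This was fixed by the choice of the pair, since each gene alone separated the genotypes, in opposite directions. The mean log2 ratio was higher by 1.05 in Pink1-/- males and by 0.77 in Pink1-/- females.

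**Figure D3:**
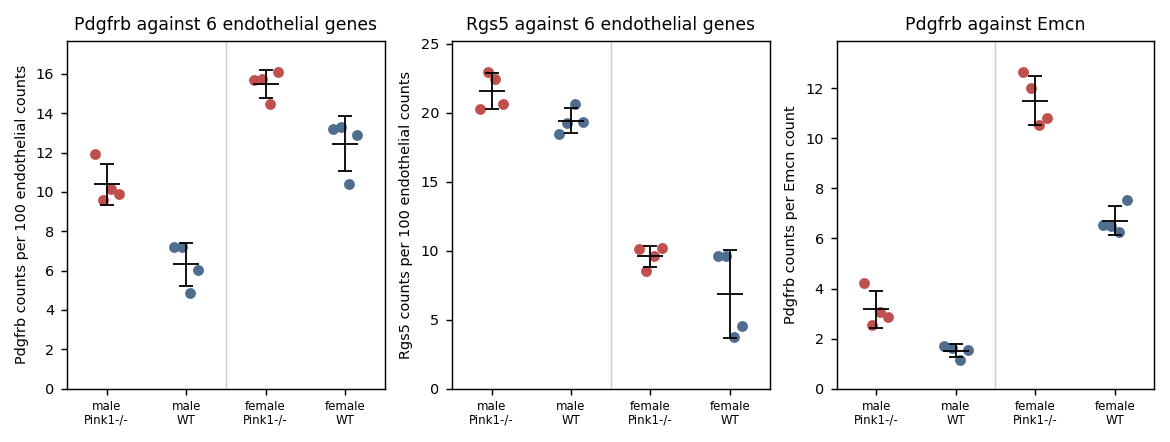
Pdgfrb counts (left) and Rgs5 counts (middle) per 100 counts of the 6 endothelial genes, and Pdgfrb counts per Emcn count (right), per library (points), with mean and SD of 4 libraries (bars), by sex and genotype. Pdgfrb per 100 endothelial counts separates Pink1-/- from WT in both sexes (10.4 against 6.31 in males, 15.5 against 12.4 in females), as Pdgfrb CPM alone did, while Rgs5 ratios overlap. The separation of Pdgfrb per Emcn count was fixed by the choice of that pair.

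The genes did not vary as a block among libraries of the same group. After each gene's log2 CPM was centred on its group mean over the 16 libraries, Rgs5 correlated with Pdgfrb at a Pearson r of 0.37, at -0.71 within males and 0.83 within females. Cdh5 had the highest r with Pdgfrb in the set (0.46) and Cspg5 the lowest (-0.42), and the other endothelial genes lay between -0.07 and 0.17. Of 11920 genes ranked, those most like Pdgfrb were Jag1 (r 0.89), a Notch ligand, Plcd3 (0.87), a phospholipase C, Dnmt1 (0.87), the maintenance DNA methyltransferase, B3gntl1 (0.85) and Wbscr16 (0.84). Those most like the mean of the 6 endothelial genes were Gls2 (0.83), a mitochondrial glutaminase, Colec12 (0.83), a scavenger receptor of endothelium, Aim1 (0.79), Mk1 (0.78) and Hadh (0.77), an enzyme of fatty acid oxidation. The named genes have the highest r of the 11920 ranked and were given no test. Dnmt1 was at r 0.98 in males and 0.61 in females, and Hadh at 0.49 and 0.87, while Jag1 was at 0.91 and 0.86. These correlations describe 16 libraries whose depth and Chat level differed, also within a sex.

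**Figure D4:**
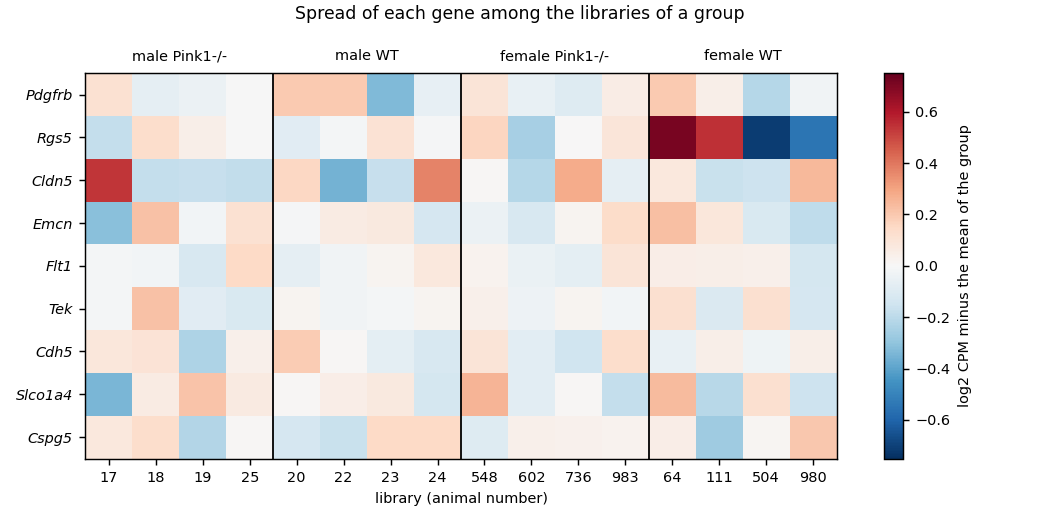
Log2 CPM of each gene (rows) minus its group mean, in each library (columns, by the number in the title), red above and blue below the mean. Rgs5 in female WT spans from 0.71 (WT 64) to -0.71 (WT 504), wider than any other gene in a group, and Cldn5 stands out at 0.54 in male Pink1-/- 17.

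Other pericyte genes did not pass the test. Of 18 tested in females 0 were called (0.059% of all genes were), 2 had an unadjusted p under 0.05 (4.64% of all genes), and the median log2 fold change was 0.17, against 0.00 for all genes. Those 2 were Cspg4, which encodes NG2 and is shared with oligodendrocyte precursors, at 55.2 ± 4.46 CPM in Pink1-/- and 46.0 ± 4.48 CPM in WT females (log2 fold change 0.27), and Atp13a5 (0.64). Of 16 tested in males 0 were called and the median was 0.19. There Notch3, a receptor of mural cells, averaged 8.58 ± 3.71 CPM in Pink1-/- and 5.38 ± 1.08 CPM in WT males. Its log2 fold change of 0.68 was 0.33 without Pink1-/- 17, which was at 13.9 CPM. Des, the intermediate filament desmin of mural cells, averaged 1.27 ± 0.302 CPM in Pink1-/- and 1.84 ± 0.289 CPM in WT males. Both genes overlapped between genotypes (SD, n = 4 each). Smooth muscle genes had 0 of 9 called in males and 0 of 10 in females, with medians of 0.10 and 0.29. Acta2, smooth muscle actin, averaged 10.2 ± 2.74 CPM in Pink1-/- and 6.03 ± 3.30 CPM in WT females (SD, n = 4 each), with overlap, and its log2 fold change of 0.77 was 0.43 without WT 504.

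Pdgfb, the endothelial ligand of PDGFRB, rose in Pink1-/- males. It was at 4.09, 3.89, 3.88 and 4.62 CPM in male Pink1-/- libraries, against 2.62, 2.40, 2.82 and 2.51 CPM in male WT libraries, without overlap. These levels rest on 31 to 64 counts a library. The log2 fold change was 0.67 ± 0.16 (SE) with an adjusted p of 0.0478 by edgeR's quasi-likelihood test, and the call was lost in each of 8 fits that left out a library (adjusted p 0.0639 to 0.133). In females Pdgfb was at 6.88, 7.02, 8.28 and 9.30 CPM in Pink1-/- and 8.87, 4.95, 6.20 and 9.0 CPM in WT libraries, which overlapped, with a log2 fold change of 0.12 ± 0.20 (SE). Of the other PDGF genes, Pdgfa, Pdgfc, Pdgfd and the receptor Pdgfra, 0 were called in either sex.

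Of 23 other endothelial genes tested in males, 1 was called lower and 0 higher, where 2.3% of all genes were called. Of their log2 fold changes 13 were above 0 and 10 were below. The median log2 fold change was 0.05. Groups did not overlap for 3 higher and 4 lower of the 23, against 7.15% and 8.04% of all genes. The gene called was Itm2a, a membrane protein gene, at 22.8 ± 3.24 CPM in Pink1-/- and 34.1 ± 2.10 CPM in WT males (SD, n = 4 each). Its log2 fold change was -0.59 with an adjusted p of 0.0147 by edgeR. Of 24 tested in females 0 were called and the median was -0.01. Endothelial Nos3, nitric oxide synthase, averaged 3.89 ± 1.25 CPM in Pink1-/- and 2.38 ± 0.401 CPM in WT males, with overlap, and its log2 fold change of 0.71 was 0.47 without Pink1-/- 17. The VEGF genes (0 of 9 called in each sex) included Kdr, the main VEGF receptor, at 10.9 ± 1.39 CPM in Pink1-/- and 12.5 ± 0.613 CPM in WT males, and at 16.1 ± 1.38 CPM in Pink1-/- and 18.6 ± 2.80 CPM in WT females. The angiopoietin and Tie genes had 0 called of 4 in males and of 5 in females. Tie1, the companion receptor of Tek, averaged 8.14 ± 1.49 CPM in Pink1-/- and 5.91 ± 0.789 CPM in WT males.

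Among transport genes of the barrier, 1 of 14, Slc7a5, was called in males and was higher, where 2.3% of all genes were called. Without overlap between the male groups, 5 of the 14 were higher and 1 was lower, against 7.15% and 8.04% of all genes. The log2 fold change was above 0 for 10 of the 14 in males and for 4 of the 14 in females. Slc7a5, the large neutral amino acid transporter of brain endothelium that other cells also make, was at 32.4, 26.7, 29.1 and 27.3 CPM in male Pink1-/- libraries, against 20.2, 17.9, 17.6 and 20.0 CPM in male WT libraries. The groups did not overlap, and the log2 fold change was 0.61 ± 0.09 (SE) with an adjusted p of 0.00541 by edgeR, kept in 8 of 8 fits that left out a library. In females it was at 56.6, 52.6, 49.9 and 51.2 CPM in Pink1-/- and 54.7, 55.3, 66.0 and 62.4 CPM in WT libraries, a log2 fold change of -0.18 ± 0.08 (SE) that did not pass. Tfrc, the transferrin receptor, averaged 103 ± 5.32 CPM in Pink1-/- and 133 ± 6.38 CPM in WT females without overlap, with a log2 fold change of -0.37 and an adjusted p of 0.172 by edgeR. Junction genes had 0 of 12 called in each sex, with 8 of 12 log2 fold changes below 0 in males and 7 of 12 in females. Groups did not overlap for 2 higher and 2 lower of the 12 genes in males, against 7.15% and 8.04% of all genes. Their values included Jam2, junctional adhesion molecule B, at 73.2 ± 5.75 CPM in Pink1-/- and 83.5 ± 1.61 CPM in WT males, and Ocln, occludin, at 15.1 ± 1.04 CPM in Pink1-/- and 17.3 ± 1.89 CPM in WT females. They also included Lsr, a tricellular junction protein, at 5.89 ± 1.34 CPM in Pink1-/- and 3.96 ± 0.472 CPM in WT males, and F11r, junctional adhesion molecule A, at 6.24 ± 0.407 CPM in Pink1-/- and 5.07 ± 0.418 CPM in WT females.

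Notch and basement membrane genes had 0 called in either sex, with median log2 fold changes of 0.47 over 10 and 0.31 over 12 genes in males and 0.05 and 0.07 in females. In males their summed levels did not overlap: the Notch genes were at 54.0 to 84.5 CPM (median 56.3) in Pink1-/- and 39.3 to 52.1 CPM in WT libraries, and the basement membrane genes were at 211 to 272 CPM in Pink1-/- and 169 to 208 CPM in WT libraries. Heyl, a Notch target of mural cells, averaged 8.85 ± 1.61 CPM in Pink1-/- and 6.07 ± 0.784 CPM in WT males. Agrn, the basement membrane proteoglycan agrin, averaged 65.8 ± 5.60 CPM in Pink1-/- and 53.5 ± 3.89 CPM in WT males (SD, n = 4 each). The male log2 fold changes of Heyl and Agrn, 0.55 and 0.30, were smallest without Pink1-/- 17, at 0.42 and 0.24. That of Notch1 went from 0.68 to 0.41 without the same library. In females both summed levels overlapped.

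**Figure D5:**
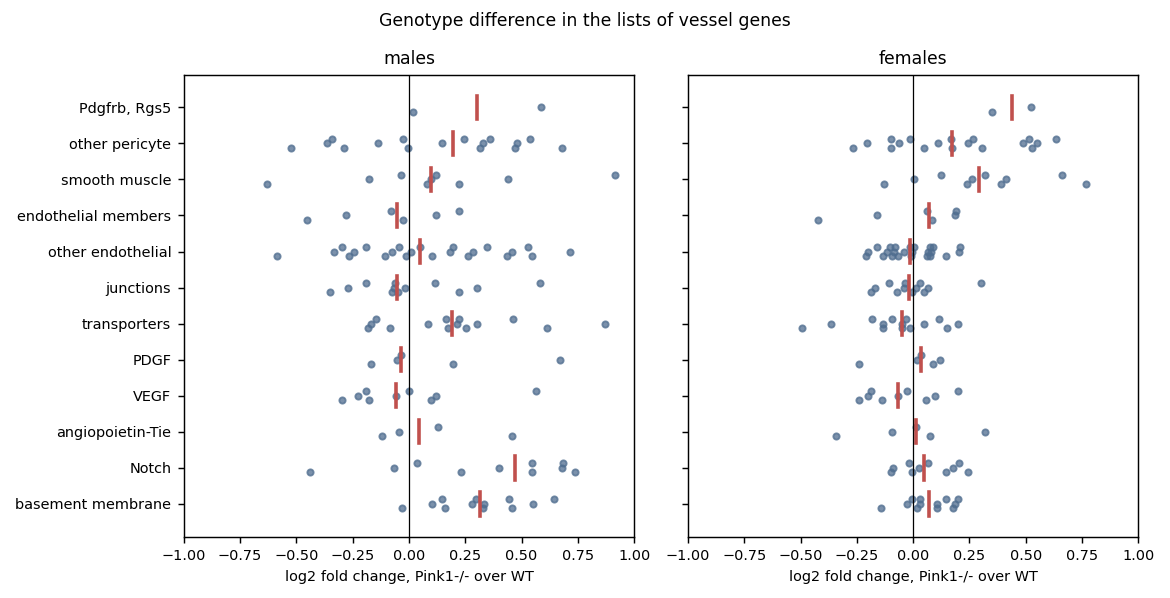
Log2 fold change of Pink1-/- over WT (x axis) for each tested gene (points) of the vessel gene lists (rows), with the list median (red bar), in males (left) and females (right). Notch and basement membrane medians lie at 0.47 and 0.31 in males and at 0.05 and 0.07 in females, and the medians of other endothelial genes lie near 0 in both.

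Genes of other cell types were read beside these results. Fibroblast genes, whose cells also make Pdgfrb, were summed at 30.0 to 33.3 CPM in Pink1-/- and 40.9 to 43.8 CPM in WT males, a difference carried by Ogn. Without Ogn the sums overlapped, at 26.5 to 28.9 CPM in Pink1-/- and 26.1 to 30.5 CPM in WT males, and the median log2 fold change of the 9 tested genes was -0.005. Their part in the Pdgfrb values was not tested. Ogn, the fibroblast proteoglycan osteoglycin, fell to 3.74 ± 0.474 CPM in Pink1-/- males, against 13.1 ± 3.21 CPM in WT males (SD, n = 4 each), with an adjusted p of 0.000248 by edgeR. In females the fibroblast sums overlapped, at 50.03 to 71.7 CPM in Pink1-/- and 36.3 to 64.8 CPM in WT libraries, and 0 of 10 genes were called. Summed levels of oligodendrocyte, oligodendrocyte precursor, astrocyte, neuron, cholinergic neuron, microglia and choroid plexus genes overlapped between genotypes in both sexes. Yet in females 9 of 10 neuron and 5 of 6 cholinergic log2 fold changes were below 0, with medians of -0.14 and -0.40. Above 0 were 9 of 10 precursor and 8 of 9 oligodendrocyte ones, with medians of 0.12 and 0.05. In males 5 of 10 precursor and 6 of 10 neuron ones were above 0. The part of these cell types in the vessel gene values was not tested. Of the lists summed here, genes were called only in males, where 2.3% of all genes were. They were 1 of 10 precursor genes tested and 1 of 7 microglia genes tested, both higher. Blood genes were at 84.4 to 502 CPM in Pink1-/- and 94.3 to 114 CPM in WT females, and the 502 CPM was that of Pink1-/- 983 alone. Pdgfrb in that library, 44.8 CPM, lay within the range of the other female Pink1-/- libraries. In males, Pink1-/- 17 and WT 23 lay at the ends of a first component that held 38.1% of the variance, and they had the highest and the lowest Pdgfrb of the male libraries; the part of that axis in the male Pdgfrb difference was not tested, beyond the fit without both libraries given above.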

How the data were processed

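Brain RNA of 16 rat libraries was analysed from the gene tables deposited for each sex. The deposited estimated counts come from RSEM, and edgeR 3.9 is also named, per the submitters' processing notes; for the aligner, build, annotation and strand setting nothing is given in the sources used here. The estimated counts were whole numbers as deposited and were not rounded further. The authors' deposited comparison tables hold, per the file headers, log2 fold changes of Pink1-/- over WT and log2 CPM, a likelihood ratio score, and p-values with false discovery rates. There were 0 unused columns of per-sample values.

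Each sex was fitted alone with edgeR 4.0.16 in R 4.3.3: filterByExpr (minimum count 10, minimum total 15), TMM scaling, and the quasi-likelihood test with Benjamini-Hochberg adjustment over all genes tested, called under 0.05. The SE is the size of the log2 fold change divided by the root of F. Levels are TMM-scaled CPM as mean ± SD, and log2 CPM for scores and correlations carry a prior count of 2. Differences between the sexes come from an interaction fit over all 16 libraries and are given as descriptions. Exact permutation tests were run with scipy 1.17.1. Alternatives were RLE size factors, library totals, no filter on low counts, a mean of at least 1 CPM, DESeq2 1.42.0, all 16 libraries in 1 fit, the male libraries without 17 and 23, each library left out in turn and, added after seeing the data, the female libraries without WT 504 and 980. The fits were also tested on simulated data.

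The genes and 19 lists (194 genes, 188 matched, 2 of them by synonym) were chosen with earlier results of these data known, and so give no independent support. The score was planned over 7 endothelial genes and used the 6 that matched. Named genes are the whole set, Pink1, the called genes of each vessel list, some of the 2 with the smallest p per sex and list as values, and the 5 most like Pdgfrb or the endothelial mean by Pearson r among genes with a mean of at least 1 CPM in each sex. Lists of other cell types are given by counts and sums, except Ogn, whose symbol has more than 1 identifier, of which the higher-count one was used. Ly6c and Folr1 were at 0 in every library.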

Additional observations from a re-analysis of the deposited data

Results flagged for a closer look

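In 36 groups of 4 libraries (9 genes, each sex and genotype), 3 held a library whose gap to its nearest neighbour, over the group's range, was above Dixon's critical value; chance alone gives about 5% of groups. Cldn5 was at 11.98 CPM in male Pink1-/- 17, the highest of its group, against 7.21 to 7.28 CPM in the other male Pink1-/- libraries. Flt1 was at 111 CPM in female WT 980, the lowest of its group. Cspg5 was at 40.1 CPM in female Pink1-/- 548, the lowest of its group.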

How the results depend on the processing

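No paired analysis was possible because the animal numbers differ between all 16 libraries. The count of genes called in females (9) was 58 with DESeq2, 17 with all 16 libraries in 1 fit, 65 without WT 504 and 980, and 7 to 16 when each library was left out. The male count (317) was 168 with library totals, 523 without a filter, 853 with DESeq2, 609 with all 16 libraries, 153 without Pink1-/- 17 and WT 23, and 98 to 217 with a library left out. The interaction count (12) was 3, 19, 21, 122 and 7 with library totals, no filter, a mean of at least 1 CPM, DESeq2 and without those 2 males, and 3 to 13 with a library left out. Pdgfrb in males (0.58) was no longer called with library totals (0.60, adjusted p = 0.0600 by edgeR), without those 2 males (0.45) or in 7 of 8 fits with a library left out (0.48 to 0.65); its adjusted p ranged from 0.00168 to 0.0747 over 15 alternatives. The female Pdgfrb was called in 0 of 15. Signs changed in males for 3 genes: Rgs5 (-0.028 to 0.076 with a library left out), Cldn5 (-0.0057 to 0.36 with a library left out, the lowest without Pink1-/- 17, and -0.066 without Pink1-/- 17 and WT 23) and Tek (-0.11 to 0.013 with a library left out). The pericyte score difference was 0.26 with medians and 0.68 with Pdgfrb alone in males (0.40), and 0.16 without WT 504 and 980 in females (0.51). The cause of these shifts was not tested. The female log2 fold changes of the 9 genes kept their sign under all 15 alternatives. Emcn rests on 50 to 134 counts a library, which limits its precision.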
